A study of Homo sapiens with 16 samples.

Results

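Retinoid receptors and the genes that supply, bind and break down retinoic acid were followed in bulk RNA-seq of E2-treated cells. The group was given as a list of 10 genes and is every row with those names in the count tables, 10 of 26364 genes. No cut on a measured value was used, but the list was chosen with earlier results of these data known. RARA, RARB, RARG and RXRA encode receptors, and the other 6 encode the retinol uptake receptor STRA6, the carrier CRABP2, the synthetic enzyme ALDH1A3, the retinaldehyde reductase DHRS3 and the degrading enzymes CYP26A1 and CYP26B1. Ishikawa cells, a line from an endometrial adenocarcinoma, and T-47D cells, a line from a breast carcinoma, were kept in medium with hormone-stripped serum in every group including the controls, for 3 days by the labels, while the methods text gives a longer time. They were then given 10 nM 17β-estradiol (E2) for 0, 2, 4 or 8 h, with 2 libraries for each line and time point and 16 in all. Each line stands for 1 tumour, and nothing in the labels says whether replicates were separate cultures, so p-values measure the spread between these samples.

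Vitamin A enters cells as retinol, is oxidized to retinaldehyde and then to retinoic acid by ALDH1A enzymes, and is carried to the nucleus by CRABP2. Retinoic acid binds RAR proteins, which sit on DNA as pairs with RXR proteins, and CYP26 enzymes clear it. DHRS3 turns retinaldehyde back into retinol and so lowers the supply of retinoic acid. The estrogen receptor and retinoic acid signalling are known to meet in breast cancer cells, where RARA is a long-known estrogen-responsive gene.

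The libraries held 41177912 to 64148903 counts, and edgeR's spread between replicates (biological coefficient of variation) was 6.45% in Ishikawa and 5.02% in T-47D cells. Levels are given as CPM, with library sizes scaled by TMM over all 16 libraries. All 5 endometrial markers (PAX8, SOX17, EMX2, HOXA10 and HOXA11) were above 1 CPM in Ishikawa cells and none was in T-47D cells, while 4 of 5 luminal breast markers were above 1 CPM in T-47D cells and 1 in Ishikawa cells. The estrogen receptor gene ESR1 lay at 169 to 242 CPM in Ishikawa and 166 to 208 CPM in T-47D libraries. The 7 markers of blood, endothelium and fibroblasts summed to 154 to 277 CPM in Ishikawa and 77.8 to 103 CPM in T-47D cells. Most of this came from 2 genes in each line. At 8 h 2 of 3 tested had fallen in Ishikawa and 3 of 4 in T-47D cells, beside 10.1% and 14.3% of all genes. The part of these markers in the results was not tested. In bulk RNA, fewer cells of a type and less RNA per cell cannot be told apart. The 4 later Ishikawa libraries, of 4 h and 8 h, did not separate by time: 4 h replicate 2 and 8 h replicate 1 differed by less (0.907, the root mean square log2 difference of 1000 genes) than the replicates of 4 h (1.09) or of 8 h (0.984). Only 2 of 15787 genes differed between the labels (edgeR's quasi-likelihood test, adjusted p under 0.05, against 554 at an unadjusted p under 0.05), and no member did, so the changes from 0 h are also given with the 4 libraries as 1 group.

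Induction of RARB and CYP26A1 by retinoic acid through DR5 elements is textbook knowledge, and neither gene passed a test after E2 here. Both had few counts, and CYP26A1 was not tested against 0 h in T-47D cells. Matches to the pattern of such elements are shown for this reason, and binding at them was not measured. A DR5 element was taken as 2 hexamers, each made of AG or GG followed by GTCA or TTCA, in the same direction with 5 bases between them, on either strand. It was found in 31 of 35116 RefSeq promoter windows of 300 bases (0.0883%). Among the 22 member windows that could be placed on GRCh37 (the hg19 build of the files), from 10 of 10 members, it occurred in 1 of RARB and 1 of CYP26A1. Both sites lie in exons of the GENCODE gene models, before a further start of the gene. A wider scan covered 10 kb on either side of the outermost start of each gene model. In it 2 more sites lay upstream of CYP26A1, and 4.35% of 22191 such starts had a site. The RARB site lies 740323 bases from that start of its gene, outside this scan. The hexamers are in capitals and the strand shown is the one that reads as listed.

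RARB, chr3:25469701-25469717, plus strand: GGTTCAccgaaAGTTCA
CYP26A1, chr10:94833560-94833576, minus strand: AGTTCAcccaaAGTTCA
CYP26A1, chr10:94830279-94830295, minus strand: GGTTCActaagGGGTCA
CYP26A1, chr10:94831674-94831690, plus strand: GGGTCAcaggcGGGTCA

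The 250 bases before the gene starts of RARA and DHRS3, the 2 members that rose in both lines at 2 h, are given next as transcribed, from the RefSeq windows matched to GRCh37. The capitals in RARA mark single hexamers, AGGTCA and the reverse of GGGTCA, and 38.6% of all promoter windows hold at least 1 of the 4 hexamers. Hexamers that end in GTCA contain GGTCA, so these patterns overlap with the one below. DHRS3 has none in this stretch. Both genes have other RefSeq windows that are not shown. Those of RARA from 38474247 and from 38498168 hold none of these hexamers. That of DHRS3 from 12656577 holds 1, TGACCT, the reverse of AGGTCA, and a further DHRS3 window could not be placed. A palindromic estrogen response element was taken as GGTCA and TGACC with 3 bases between them. None was found in a placed window of any member, against 0.057% of promoter windows. Within 10 kb of the outermost start of a member's gene model there was none either, against 1.8% of such starts. The surroundings of other starts were not scanned beyond the promoter windows. These are matches of letters in windows, and the absence of a match says only that these letters are not in these windows.

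RARA, chr17:38465182-38465431, plus strand: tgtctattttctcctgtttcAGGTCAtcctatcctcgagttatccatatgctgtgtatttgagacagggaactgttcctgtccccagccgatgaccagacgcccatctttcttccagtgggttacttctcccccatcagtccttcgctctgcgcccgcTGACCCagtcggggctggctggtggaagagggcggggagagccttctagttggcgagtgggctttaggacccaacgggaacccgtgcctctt
DHRS3, chr1:12678217-12678466, minus strand: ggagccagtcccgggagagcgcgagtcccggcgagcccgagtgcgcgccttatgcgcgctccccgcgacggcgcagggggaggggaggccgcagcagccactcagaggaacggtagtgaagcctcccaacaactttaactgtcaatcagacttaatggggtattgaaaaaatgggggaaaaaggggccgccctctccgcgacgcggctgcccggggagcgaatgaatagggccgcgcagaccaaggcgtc

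Without E2, the lines carried these genes at different levels. All 10 members were tested over both lines and 9 differed at 0 h (edgeR's quasi-likelihood test, adjusted p under 0.05), 6 higher and 3 lower in T-47D cells, where 81.9% of all genes differed (39.5% higher and 42.4% lower). Of the 3 lower, STRA6 passed the filter on low counts only through the Ishikawa libraries, where it is high. CYP26B1 had 2 and 2 counts at 0 h in T-47D cells. The calls of STRA6 and CYP26B1 as lower are thus a description. Cell line and any difference in handling of the lines cannot be told apart. To compare genes with each other, levels were divided by annotated exonic length (RPKM, CPM per kb). The orders below rest on these lengths, which may differ from the transcripts in these cells, and overlap refers to the libraries only. RXRA has 12077 annotated exonic bases and RARG 5127. By mean CPM, RXRA (90.2) stood above RARG (65.6) in Ishikawa cells at 0 h. In Ishikawa cells, RARG was the highest at 12.8 ± 0.814 RPKM (SD, n = 2), followed by CRABP2 at 7.65 ± 0.889 and RXRA at 7.47 ± 0.0351, which overlapped, and RARA at 5.40 ± 0.686. CYP26B1 (1.33 ± 0.0292) and ALDH1A3 (1.16 ± 0.228) overlapped as well, above DHRS3 (0.933 ± 0.0604) and STRA6 (0.597 ± 0.0618). RARB (0.0702 ± 0.0101) and CYP26A1 (0.0567 ± 0.0396) were the lowest and overlapped. In T-47D cells the order was led by CRABP2 at 327 ± 18.3 RPKM, far above RXRA at 23.2 ± 0.468, RARG at 21.4 ± 0.138 and RARA at 16.7 ± 1.09, none of which overlapped. ALDH1A3 (2.36 ± 0.159) and DHRS3 (1.97 ± 0.0523) followed without overlap, and RARB, CYP26A1, CYP26B1 and STRA6 stood at 0.0329 RPKM or less.

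**Figure D1:**
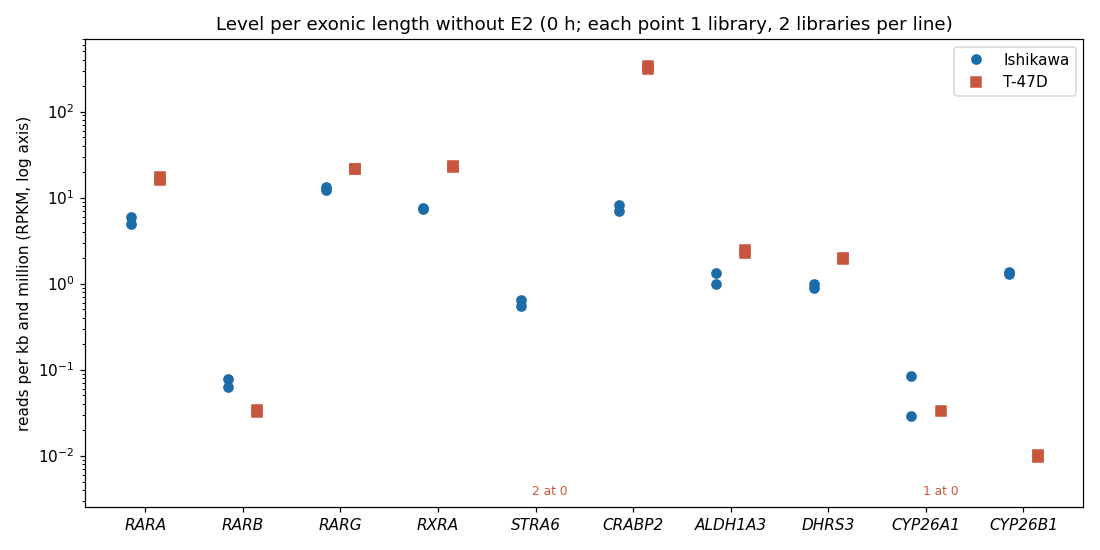
Level of each member per exonic length at 0 h, as RPKM on a log axis, with 1 point for each of the 2 libraries of Ishikawa (circles) and T-47D (squares) cells; libraries with no counts are written as at 0. CRABP2 stands at 327 RPKM in T-47D against 7.65 in Ishikawa cells, and STRA6 has no counts in T-47D cells at 0 h.

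CRABP2, which hands retinoic acid to RARs, was the member most raised in T-47D cells by fold. At 0 h its libraries held 7.60 and 8.96 CPM in Ishikawa and 368 and 340 CPM in T-47D cells, 42.8-fold higher in T-47D cells (log2 difference 5.42, SE 0.09, adjusted p = 9.87e-22, edgeR). CYP26B1 went the other way. It had 299 and 314 counts in the Ishikawa and 2 and 2 in the T-47D libraries at 0 h, a ratio of 135 in favour of Ishikawa cells (95% interval 52.6 to 498, counting error only). STRA6 had 199 and 235 counts at 0 h in Ishikawa cells, while 7 of 8 T-47D libraries had none and the other, 4 h replicate 2, had 2. With T-47D set to 3 counts per library (0.0718 CPM), STRA6 at 0 h was at least 63.7-fold higher in Ishikawa cells. RXRA and RARA, the dimer partners, were 3.10-fold and 3.08-fold higher in T-47D cells, DHRS3 2.12-fold, ALDH1A3 2.04-fold and RARG 1.67-fold (adjusted p from 2.78e-17 for RXRA to 6.49e-07 for ALDH1A3, edgeR). RARB was lower in T-47D cells on 28 and 35 against 13 and 13 counts (adjusted p = 0.0311), a call lost with DESeq2 (adjusted p = 0.0752) and without Ishikawa 0 h replicate 2 or either T-47D 0 h library (adjusted p up to 0.135).

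After E2, 3 of 10 tested members had changed at 2 h in Ishikawa cells (4.35% of all 15787 genes tested, 2.61% higher and 1.74% lower). At 4 h 3 had changed (14.3% of genes, 7.66% higher and 6.6% lower), and by 8 h 4 had (22.1% of genes, 12% higher and 10.1% lower). In T-47D cells, 4 of 8 tested members had changed at 2 h (9.3% of 15594 genes, 4.9% higher and 4.4% lower), 4 had by 4 h (21.5% of genes, 11.1% higher and 10.4% lower), and 7 had by 8 h (29.7% of genes, 15.4% higher and 14.3% lower). The 3 contrasts of a line share its 0 h libraries. CYP26A1 and STRA6 did not pass the filter on low counts in T-47D cells, and CYP26B1 passed it there only through its later time points, so counts over the tested members are not counts over all 10. Without CYP26B1, 6 of 7 had changed at 8 h in T-47D cells. At each time 2 members rose in Ishikawa cells, RARA and DHRS3, and RARG fell, with STRA6 also lower at 8 h. In T-47D cells, RARA rose while RARG and RXRA fell at all 3 times. The median log2 change of the tested members was -0.07, -0.28 and -0.12 for Ishikawa and -0.10, -0.20 and -0.36 for T-47D cells at these times, beside medians over all genes within 0.01 of 0. With the Ishikawa libraries of 4 h and 8 h as 1 group, 6 of 10 members had changed, 2 upward and 4 downward, since RXRA, CRABP2 and STRA6 then passed against 0 h, beside 25.7% of all genes (13.5% higher and 12.2% lower).

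**Figure D2:**
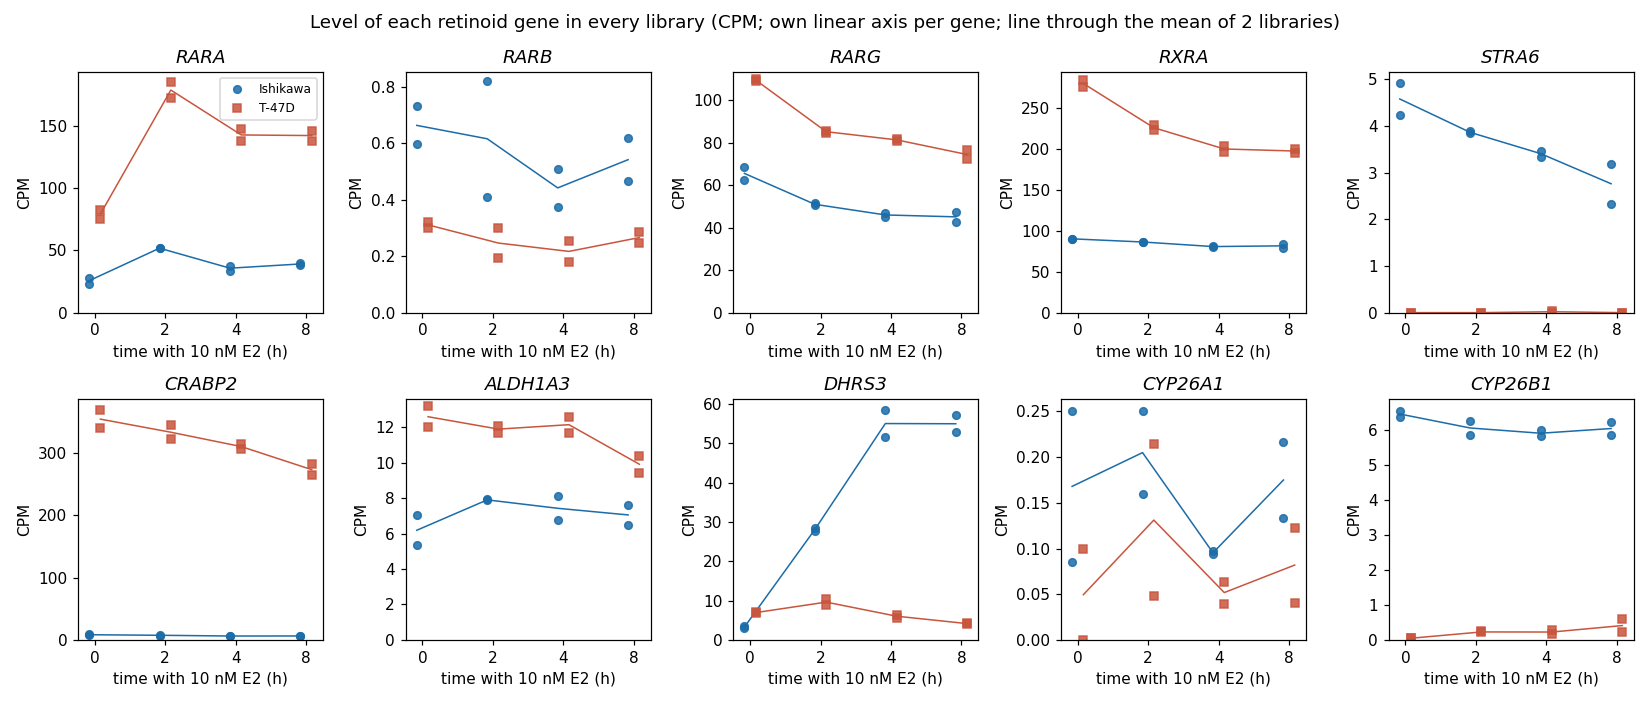
CPM of each member in every library against hours with E2, on a linear axis of its own for each gene, with points for the 2 libraries of Ishikawa (circles) and T-47D (squares) cells and a line through their means. DHRS3 rises from 3.28 to 55.0 CPM in Ishikawa cells and goes from 6.94 to 9.63 and then 4.14 CPM in T-47D cells, while RARA is highest at 2 h in both.

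RARA, the retinoic acid receptor alpha gene on chromosome 17 (38465432 to 38513895), rose in both lines and was highest at 2 h. The Ishikawa libraries of 0 h had 23.3 and 27.9 CPM, those of 2 h had 51.7 and 51.7, those of 4 h 33.5 and 37.8, and those of 8 h 39.8 and 38.3. The T-47D libraries of 0 h had 75.4 and 82.7 CPM, those of 2 h had 172 and 185, those of 4 h 138 and 147, and those of 8 h 146 and 138. Every treated library was above every 0 h library of its line, and both 2 h libraries were above all later ones. The rise at 2 h was 2.03-fold in Ishikawa (log2 1.02, SE 0.09, adjusted p = 2.44e-06) and 2.24-fold in T-47D cells (log2 1.17, SE 0.06, adjusted p = 6.78e-11, edgeR). The later rises were 1.40-fold (4 h) and 1.52-fold (8 h) in Ishikawa and 1.79-fold (4 h) and 1.80-fold (8 h) in T-47D cells, and all 6 of these values passed with each library left out. With the 4 later Ishikawa libraries as 1 group the rise was 1.46-fold (log2 0.55, adjusted p = 0.000185). From 2 h to 4 h RARA fell by 0.32 on the log2 scale in T-47D cells (adjusted p = 0.00178, 0.0770 without 2 h replicate 2), where 3 of 8 members changed, all downward, against 3.4% of all genes (1.94% higher and 1.46% lower). In Ishikawa cells the 4 later libraries were 0.47 lower than the 2 h libraries (adjusted p = 0.00174), where 2 of 10 members changed, DHRS3 upward and RARA downward, against 4.84% of genes (2.24% higher and 2.6% lower). Exons of RARA share 556 bases, 11.7% of its exonic length, with the antisense gene RARA-AS1, which reached at most 0.57 CPM in Ishikawa and 0.966 CPM in T-47D libraries.

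RARG, the gamma receptor, fell in both lines. Ishikawa libraries of 0 h had 62.6 and 68.5 CPM, those of 2 h had 50.5 and 51.5, those of 4 h 45.1 and 46.9, and those of 8 h 42.8 and 47.4. T-47D libraries of 0 h had 109 and 110 CPM, those of 2 h had 84.8 and 85.6, those of 4 h 81.8 and 80.9, and those of 8 h 76.6 and 72.3. No treated library reached its 0 h libraries. The successive log2 changes were -0.35, -0.50 and -0.54 for Ishikawa (adjusted p = 0.00967, 0.000301 and 0.000135) and -0.37, -0.43 and -0.56 for T-47D cells (adjusted p = 3e-05, 2.58e-06 and 8.68e-08, edgeR). With the later Ishikawa libraries as 1 group the change was -0.52 (adjusted p = 1.51e-05). The Ishikawa value at 2 h lost its call without either 2 h library or without 0 h replicate 2, with changes of -0.34, -0.36 and -0.28 (adjusted p up to 0.128). The changes of the lines differed at 4 h by 0.08 (95% interval -0.09 to 0.26), and at this precision the test did not tell them apart.

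The opposite courses of RARA and RARG changed their ratio per length. RARA per RARG, a ratio of RPKM, went in Ishikawa libraries from 0.402 and 0.440 without E2 to 1.11 and 1.09 by 2 h, 0.803 and 0.871 by 4 h, and 1.01 and 0.873 by 8 h. T-47D libraries went from 0.748 and 0.813 without E2 to 2.19 and 2.34 by 2 h, 1.82 and 1.96 by 4 h, and 2.06 and 2.06 by 8 h. The ratio lay under 1 in every 0 h library and over 1 in every 2 h library, and in T-47D cells it stayed over 1 to the end. It rests on annotated exon lengths that may differ from the transcripts in these cells.

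**Figure D3:**
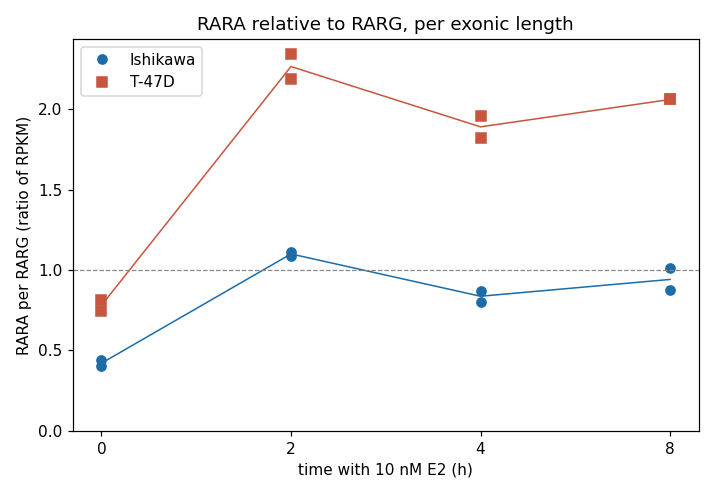
Ratio of RARA to RARG as RPKM, in each library of Ishikawa (circles) and T-47D (squares) cells against hours with E2, with lines through the means and a dashed line at 1. The mean ratio went from 0.421 to 1.10 in Ishikawa and from 0.780 to 2.26 in T-47D cells between 0 h and 2 h.

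RXRA, the shared partner of the RARs, fell in T-47D cells. Libraries of 0 h had 276 and 284 CPM there, those of 2 h had 223 and 229, those of 4 h 196 and 204, and those of 8 h 200 and 195, with no overlap between 0 h and any later time. The log2 changes were -0.32, -0.49 and -0.50 (SE 0.04 each, adjusted p = 4.37e-05, 1.52e-07 and 6.72e-08, edgeR). The step from 2 h to 4 h was -0.17 (adjusted p = 0.0314) and lost its call without any 1 of the libraries of 2 h and 4 h (adjusted p up to 0.359). In Ishikawa cells RXRA stood at 89.9 and 90.5 CPM at 0 h and between 79.2 and 86.5 CPM in the treated libraries. The log2 values of -0.06, -0.15 and -0.15 did not pass, although with 4 h and 8 h as 1 group the value of -0.15 did (adjusted p = 0.0284).

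RARB, the beta receptor gene and a known retinoic acid target, stayed near the detection limit. It had 16 to 46 counts per library in Ishikawa and 8 to 16 in T-47D cells and passed at no time point, nor with the later Ishikawa libraries as 1 group (adjusted p = 0.421). Summed counts at 8 h against 0 h gave a ratio of 0.833 in Ishikawa (95% interval 0.573 to 1.21) and 0.857 in T-47D cells (0.478 to 1.54, counting error only). Since 71.2% to 74.6% of small counts were even in each library, a count may stand for less than 1 independent fragment, and such intervals are then too narrow.

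DHRS3, on chromosome 1 (12627939 to 12678216), was the member that changed most, and it did so in Ishikawa cells. Libraries of 0 h had 3.13 and 3.43 CPM there, those of 2 h had 28.4 and 27.8, those of 4 h 58.5 and 51.6, and those of 8 h 52.9 and 57.1. The rise was 8.61-fold at 2 h (log2 3.11, SE 0.10, adjusted p = 3.11e-11), 16.8-fold at 4 h (log2 4.07, adjusted p = 7.47e-13) and 16.7-fold at 8 h (log2 4.06, adjusted p = 7.4e-13, edgeR). By size of the rise it ranked 18 of 15787 genes after 2 h, 14 after 4 h and 15 after 8 h. With each library left out, the 3 values stayed between 3.04 and 3.18, 3.98 and 4.15, and 3.99 and 4.14. The 4 later libraries together were 16.8-fold above 0 h (log2 4.07, adjusted p = 4.09e-14) and 1.95-fold above 2 h (log2 0.96, adjusted p = 1.38e-06).

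In T-47D cells DHRS3 followed another course. Libraries of 0 h had 7.07 and 6.81 CPM, those of 2 h had 8.93 and 10.3, those of 4 h 6.45 and 5.61, and those of 8 h 4.10 and 4.19. It was 1.38-fold higher at 2 h (log2 0.46, adjusted p = 0.0215) and 1.67-fold lower at 8 h (log2 -0.74, adjusted p = 0.000274, edgeR), with the 8 h libraries below all others. The call at 2 h was lost without 2 h replicate 2 (0.36, adjusted p = 0.230) or 0 h replicate 2 (0.45, adjusted p = 0.0932), while the value at 8 h kept its call throughout. From 2 h to 4 h DHRS3 fell by 0.67 on the log2 scale (adjusted p = 0.00332, up to 0.0872 without 4 h or 2 h replicate 2). From 4 h to 8 h it fell by 0.54 (adjusted p = 0.0259), a call lost without any 1 of the 4 h and 8 h libraries (adjusted p up to 0.271). Over that step 2 of 8 members changed, DHRS3 and CRABP2, both downward, against 3.42% of genes (2.09% higher and 1.33% lower). Over the 8 Ishikawa libraries the genes most like DHRS3 in log2 CPM included KCNJ5 (Pearson r = 0.998) and NRTN (0.998), as a description of libraries that share their treatment.

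CYP26B1, which degrades retinoic acid, had more counts in T-47D cells after E2 than before. Libraries of 0 h had 2 and 2 counts there, those of 2 h had 10 and 10, those of 4 h 17 and 9, and those of 8 h 29 and 11, so that every treated library was above both 0 h libraries. The ratio of summed counts at 8 h against 0 h, scaled for library size, was 8.57 (95% interval 3.10 to 33, counting error only), and at 2 h and 4 h it was 4.75 (1.59 to 19.1) and 4.81 (1.67 to 19). Because CYP26B1 passed the filter in T-47D cells only through its later libraries, its call at 8 h (log2 3.03, SE 0.77, adjusted p = 0.00606, edgeR) is a description and no support for a change. Without 8 h replicate 1 it was not called (2.18, adjusted p = 0.110). DESeq2 gave no adjusted p at this level of counts. In Ishikawa cells CYP26B1 stayed between 5.82 and 6.56 CPM in all 8 libraries, with log2 values of -0.08, -0.12 and -0.10 that did not pass and a 95% interval of -0.38 to 0.18 at 8 h. As 1 group the later libraries gave -0.11 (adjusted p = 0.493). The T-47D genes most like it over 8 libraries were C14orf169 (Pearson r = 0.991), NXT1 (0.969) and DUSP7 (0.968), at a depth where 1 count moves the CYP26B1 level. CYP26A1, its paralog and a classic retinoic acid target, had 4 to 14 counts per Ishikawa library and 0 to 10 per T-47D library. Against 0 h it was tested in Ishikawa cells only. It passed there at no time, nor with the later libraries as 1 group (adjusted p = 0.804). Its ratio of summed counts at 8 h against 0 h in Ishikawa cells was 1.07 (0.523 to 2.23). In T-47D cells the ratios at 2, 4 and 8 h were 2.85 (0.864 to 12.1), 1.11 (0.263 to 5.35) and 1.71 (0.459 to 7.77). The 3 DR5 sites shown above thus stand beside a gene at 0.251 CPM or less in every library.

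CRABP2 went down in T-47D cells, with 368 and 340 CPM in libraries of 0 h, 344 and 322 in those of 2 h, 314 and 306 in those of 4 h, and 282 and 264 in those of 8 h. The change was -0.20 at 4 h (adjusted p = 0.00575, 0.0658 without 4 h replicate 2 and 0.0893 without 0 h replicate 1) and -0.38 at 8 h (SE 0.05, adjusted p = 9.28e-06, edgeR), with the 8 h libraries below all others. Its step from 4 h to 8 h was -0.18 (adjusted p = 0.0490) and lost its call in 5 of 8 fits that left out a library, those without 4 h replicate 1 or 2, 2 h replicate 1 or 2, or 8 h replicate 2 (adjusted p up to 0.302). In Ishikawa cells CRABP2 went from 7.60 and 8.96 CPM to 6.43 and 6.13 at 8 h, with values of -0.41 at 4 h (adjusted p = 0.0651) and -0.40 at 8 h (adjusted p = 0.0507). With 4 h and 8 h as 1 group the value of -0.41 passed (adjusted p = 0.0168).

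STRA6, the cell-surface receptor that takes up retinol, went down in Ishikawa cells. Libraries of 0 h had 199 and 235 counts, those of 2 h had 170 and 215, those of 4 h 143 and 143, and those of 8 h 191 and 105, or 4.24 and 4.91 CPM at 0 h and 3.19 and 2.33 CPM at 8 h. The change at 8 h was -0.72 (SE 0.18, adjusted p = 0.0111, edgeR). It was not called without 8 h replicate 2 (-0.54, adjusted p = 0.104) or 0 h replicate 2 (-0.60, adjusted p = 0.124), and as 1 group with 4 h it was -0.57 (adjusted p = 0.0177). Exons of STRA6 share 519 bases with CCDC33 on the other strand, which stayed at or under 0.327 CPM. ALDH1A3, which makes retinoic acid, had 12 and 13.2 CPM in T-47D libraries of 0 h and 9.43 and 10.4 CPM in those of 8 h (log2 -0.35, adjusted p = 0.0133, edgeR). This call was lost without 8 h replicate 1 (-0.27, adjusted p = 0.105) or 0 h replicate 2 (-0.27, adjusted p = 0.121). In Ishikawa cells ALDH1A3 lay between 5.33 and 8.11 CPM and did not pass, with 0.23 for the later libraries as 1 group (adjusted p = 0.214).

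**Figure D4:**
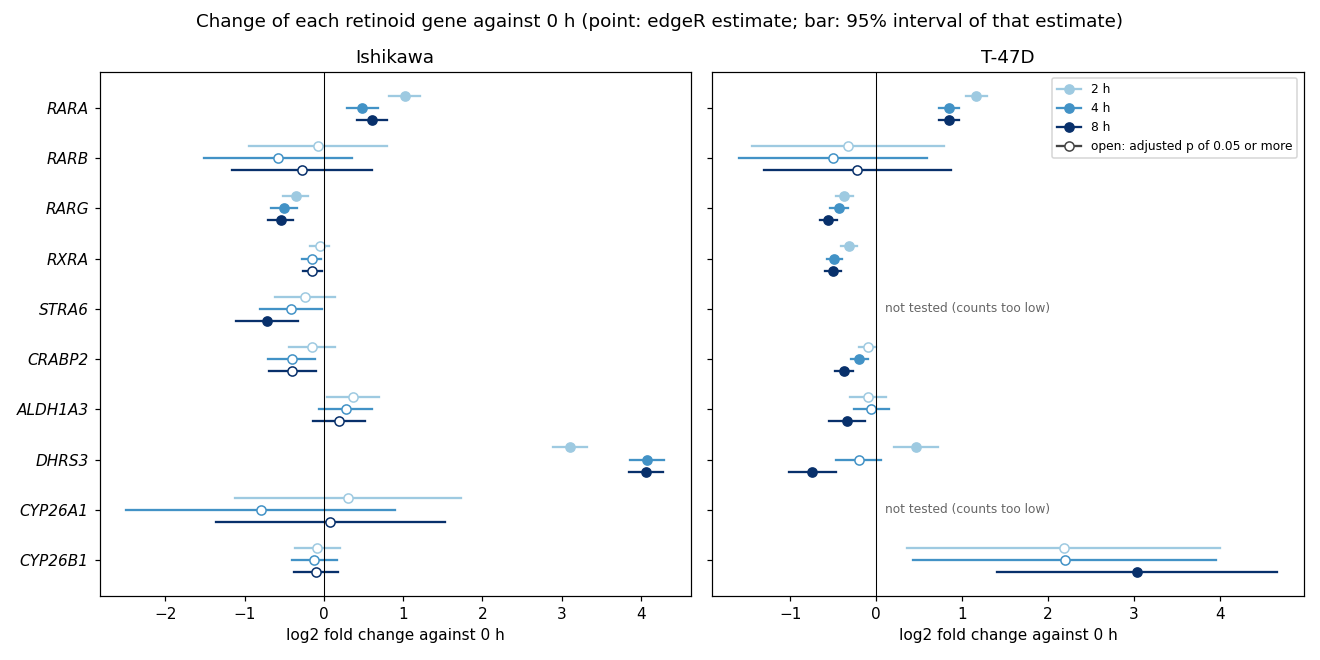
Log2 fold change of each member against 0 h in Ishikawa (left) and T-47D (right) cells, with points for 2, 4 and 8 h, bars for the 95% interval and open points where the adjusted p was 0.05 or more. RARA lies to the right and RARG to the left of 0 in both lines, and DHRS3 reaches 4.07 in Ishikawa but -0.74 in T-47D cells.

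Whether the changes differed between the lines was tested as an interaction over all 16 libraries. At 2 h it passed for 1 of 10 members, downward (2.67% of 17090 genes, 1.4% higher and 1.28% lower). At 4 h it passed for 4, 2 in each direction (6.03% of genes, 3.21% higher and 2.83% lower). By 8 h it passed for 3, 1 upward and 2 downward (10% of genes, 5.32% higher and 4.7% lower). The log2 change of DHRS3 was lower in T-47D than in Ishikawa cells, with differences of -2.63, -4.27 and -4.81 for the successive times (adjusted p = 8.2e-10, 6.48e-13 and 1.22e-13, edgeR). RXRA differed by -0.32 at 4 h (adjusted p = 0.00541) and -0.36 at 8 h (adjusted p = 0.0013), and its -0.25 at 2 h did not pass (adjusted p = 0.0631). With 4 h and 8 h of Ishikawa as 1 group the RXRA differences were -0.33 and -0.35. CYP26B1 differed by 3.13 at 8 h (adjusted p = 0.00202) and by 2.33 at 4 h (adjusted p = 0.0449), the second of which was lost in 14 of 16 fits without 1 library. RARA differed by 0.37 at 4 h (adjusted p = 0.0443), lost in 12 of 16 such fits and with the pooled Ishikawa group (0.30, adjusted p = 0.0883). At 2 h, its highest point in both lines, RARA differed by 0.16 (95% interval -0.06 to 0.38, adjusted p = 0.716). ALDH1A3 differed by -0.54 at 8 h without passing (adjusted p = 0.0812), and by -0.57 with the pooled group (adjusted p = 0.0371). STRA6 could not be compared, since T-47D cells had no counts for it at 0, 2 and 8 h, so the 10 members include it without a usable value. CYP26B1 is counted above as passing at 4 h and 8 h. Its differences rest on 2 and 2 counts at 0 h in T-47D cells, so they are a description and no support for a change.

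**Figure D5:**
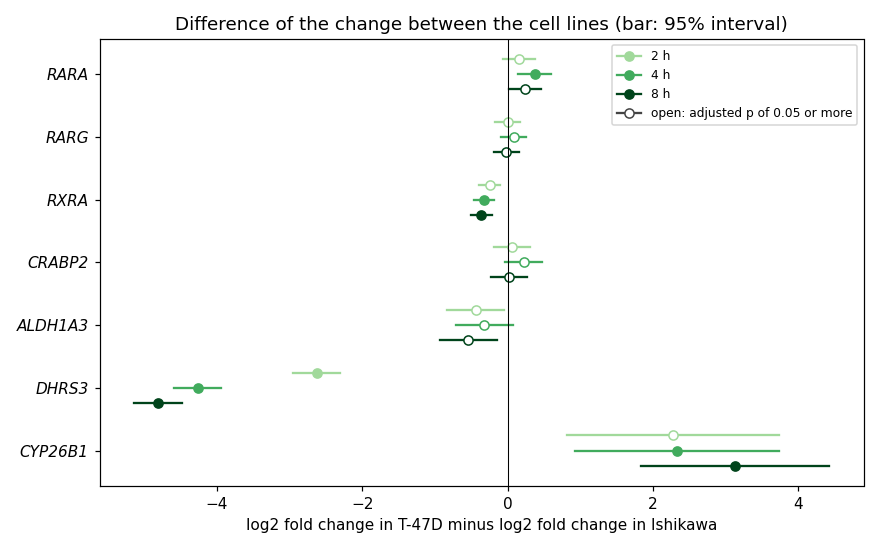
Log2 fold change in T-47D minus that in Ishikawa cells for 7 members, leaving out RARB, CYP26A1 and STRA6, at 2, 4 and 8 h. Bars are 95% intervals, and points are open where the adjusted p was 0.05 or more. DHRS3 stands apart at -2.63 to -4.81 and CYP26B1 at 2.28 to 3.13 with wide intervals, while RARG surrounds 0.

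Other genes of retinoid uptake, storage and metabolism were called in both directions, at 8 h in Ishikawa cells 4 of 19 beside 22.1% of all genes and in T-47D cells 3 of 16 beside 29.7%. Of 29 on the list, 19 were tested in Ishikawa cells, with none called at 2 h, 2 lower at 4 h and 1 higher and 3 lower at 8 h. In T-47D cells, 16 were tested, with none at 2 h, 1 higher at 4 h and 2 higher and 1 lower at 8 h. At 2 h and 4 h, 4.35% and 14.3% of all genes were called in Ishikawa and 9.3% and 21.5% in T-47D cells. The retinol carrier RBP2 fell by 0.63 at 4 h in Ishikawa cells (adjusted p = 0.00569, edgeR), a call lost without 4 h replicate 1 or 0 h replicate 2. In the Ishikawa libraries of 8 h, RBP5 had a change of -1.20 (adjusted p = 0.0168), lost with the pooled group and without either 8 h library or 0 h replicate 2. LRAT, which stores retinol as esters, had a change of 0.33 there (adjusted p = 0.0395), lost in 7 of 15 alternatives, among them the pooled group and the fits without 8 h replicate 1, either 2 h library or 0 h replicate 2. In T-47D cells RDH16 fell by 0.67 and RBP7 rose by 0.57 at 8 h (adjusted p = 0.00235 and 0.000998, edgeR). The list's median log2 change lay between -0.13 and 0.03 in Ishikawa and between -0.20 and -0.04 in T-47D cells.

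Among 15 other receptors and coregulators, 14 were tested in Ishikawa and 13 in T-47D cells. In Ishikawa cells 2, 2 and 3 rose and 0, 1 and 1 fell over the successive times. Over all genes there, 2.61%, 7.66% and 12% rose and 1.74%, 6.6% and 10.1% fell. In T-47D cells 1 rose each time and 1, 4 and 4 fell. Over all genes there, 4.9%, 11.1% and 15.4% rose and 4.4%, 10.4% and 14.3% fell. The median log2 change of this list lay between -0.02 and 0.02 in Ishikawa and between -0.10 and -0.05 in T-47D cells. NRIP1, a corepressor of nuclear receptors, rose in both lines at all 3 times, by 1.07 at 2 h in Ishikawa (45.0 and 39.9 to 87.8 and 88.9 CPM) and 0.84 in T-47D cells (60.3 and 53.1 to 99.7 and 105 CPM). NCOA3, a coactivator, fell in T-47D cells by 0.40 at 8 h (adjusted p = 1.3e-06). RXRB, FABP5 and PPARD passed once each (changes of -1.12 and 0.27 in Ishikawa libraries of 8 h and -0.24 in T-47D libraries of 4 h), and each call was fragile. It was lost for RXRB without 8 h replicate 2 or 0 h replicate 1 and with DESeq2, for FABP5 without 8 h replicate 2, either 2 h library or either 0 h library, and for PPARD without either 4 h library or 0 h replicate 2.

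Of 24 further genes known as retinoic acid targets, 20 were tested in each line. In Ishikawa cells 2, 2 and 1 rose and 3, 4 and 5 fell at 2, 4 and 8 h. Over all genes there, 2.61%, 7.66% and 12% rose and 1.74%, 6.6% and 10.1% fell. In T-47D cells 3 rose at each time, TGM2 among them, and 1, 6 and 6 fell. Over all genes there, 4.9%, 11.1% and 15.4% rose and 4.4%, 10.4% and 14.3% fell. The median log2 change of this list lay between -0.26 and -0.10 in Ishikawa and between -0.19 and -0.15 in T-47D cells. TGM2, tissue transglutaminase, had 6 and 6 counts at 0 h in T-47D cells and 200 and 138 at 4 h. The log2 change was 4.34 (adjusted p = 7.62e-09, edgeR). TGM2 passed the filter on low counts there only through its treated libraries, so this call is a description and no support for a change. Its 0.23 at 4 h in Ishikawa cells did not pass. The receptor tyrosine kinase gene RET rose in T-47D cells from 1.73 and 1.68 CPM to 6.75 and 9.30 at 2 h (log2 2.22, adjusted p = 6.55e-08). In Ishikawa cells RET was called higher at 4 h (log2 1.51), at means of 0.378 CPM at 0 h and 1.08 CPM at 4 h. That call was lost without 4 h replicate 2 or 0 h replicate 1. ELF3, an epithelial transcription factor, rose by 1.26 at 2 h in Ishikawa cells (adjusted p = 5.01e-07) and fell by 0.84 at 4 h in T-47D cells (adjusted p = 4.06e-09), with a difference between the lines of -1.33 at 4 h (adjusted p = 4.32e-07, edgeR). TGFB2, GPRC5A and BTG2 fell in both lines, by 1.14 and 1.13 for TGFB2 and GPRC5A at 4 h in Ishikawa cells and by 0.98 for BTG2 at 8 h in T-47D cells.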

How the data were processed

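Bulk RNA-seq of 16 libraries was analysed. The authors made directional poly(A) libraries, aligned reads to hg19 with HISAT2, processed alignments with SAMtools and counted reads per UCSC Known Gene with featureCounts, and they deposited raw counts for 26364 genes in 1 table per line. Versions, strand setting and handling of read pairs are not given in the sources used here. Samples were grouped by labelled line and time. The deposited counts were filtered with filterByExpr, scaled by TMM and tested with edgeR 4.0.16 (R 4.3.3) by the quasi-likelihood F test with Benjamini-Hochberg adjustment over all genes tested, within each line (15787 and 15594 genes) and over both lines for 0 h and interactions (17090 genes). The SE is the log2 fold change divided by the root of F. Exonic lengths come from GENCODE on GRCh37, promoter windows from RefSeq (GRCh38.p14), placed on GRCh37 by exact match. Floors are 3 counts and intervals 95% Clopper-Pearson, for counting error only. The test was tested on simulated data. Alternatives were RLE scaling, DESeq2 1.42.0, an unfiltered table, a stricter filter (10 counts or more in each library), the replicate block, only the time points compared, each library left out and pooled Ishikawa 4 h and 8 h. Members, lists and rules were chosen with earlier results of these data known. Named beside the members are list genes that passed against 0 h with a mean of at least 50 counts, at most the 6 with the largest change per list, and the 3 genes most correlated with the member changing most in each line. Some genes that this rule names are not reported here.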

Additional observations from a re-analysis of the deposited data

Results flagged for a closer look

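The changes of 4 members differed between the lines by the interaction test (edgeR's quasi-likelihood test, T-47D minus Ishikawa, log2 scale). The differences for DHRS3 were -2.63 (2 h), -4.27 (4 h) and -4.81 (8 h), with all 16 fits that left out 1 library on the same side of the threshold. RXRA differed by -0.32 at 4 h and -0.36 at 8 h, also in all 16 fits. CYP26B1 differed by 2.33 at 4 h and 3.13 at 8 h, on counts of 2 and 2 at 0 h in T-47D cells, and the 4 h value lost its call in 14 of 16 such fits and the 8 h value in none of them. RARA differed by 0.37 at 4 h, a value that stood between 0.24 and 0.48 with 1 library left out and passed in 4 of these 16 fits. Of 7 other alternatives, 4 lost the RARA call. The CYP26B1 values are a description and no support for a change, as above. Groups of 2 libraries are too small for a check of outlying libraries.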

How the results depend on the processing

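None of the 49 member changes that passed turned its direction under any alternative. Of 68 that did not pass, 10 passed under at least 1 alternative and 23 changed sign under at least 1. The text calls none of the latter a rise or a fall. The STRA6 interactions, which had no usable value, are in neither count. Members with a changed level numbered 6 in place of 3 at 4 h in Ishikawa cells with 4 h and 8 h as 1 group. For the interaction at 2 h, RLE scaling, DESeq2, an unfiltered table, the stricter filter (10 counts or more in each library) and a fit restricted to the times compared each gave 2 in place of 1, RXRA in each of them but CYP26B1 in the unfiltered table. At 4 h the stricter filter gave 2 in place of 4. It removes CYP26B1 by construction, and RARA lost its call (adjusted p = 0.0562, edgeR). From 4 h to 8 h in T-47D cells a fit of only these times gave 1 in place of 2. Otherwise the cause was not tested. With 1 library left out, the member counts ranged from 2 to 3, 3 to 4 and 3 to 5 at 2, 4 and 8 h in Ishikawa cells, from 3 to 4, 3 to 4 and 5 to 7 in T-47D cells, from 0 to 3 and 0 to 2 for the T-47D steps from 2 h to 4 h and 4 h to 8 h, from 8 to 9 at 0 h between the lines, and from 1 to 2, 2 to 4 and 3 to 5 for the interactions. They stayed at 2 for the later Ishikawa libraries against 2 h. Genes ranged from 322 to 1735, 1002 to 2995 and 1409 to 4234 in Ishikawa cells and from 816 to 1798, 1821 to 3853 and 3427 to 4486 in T-47D cells, from 198 to 695 and 170 to 686 for the T-47D steps, from 131 to 983 for the later Ishikawa libraries against 2 h, from 13304 to 14138 at 0 h between the lines, and from 325 to 521, 658 to 1177 and 1185 to 2419 for the interactions. Over all genes, no filter gave 1162 in place of 686 at 2 h in Ishikawa cells, 830 and 914 in place of 530 and 533 for the T-47D steps and 1356 in place of 764 for the later Ishikawa libraries against 2 h. The pooled group gave 4055 in place of 2251 at 4 h, and a fit restricted to those times gave 1264 in place of 530 from 2 h to 4 h in T-47D cells. Replicate numbers did not pair the samples, with correlations of same-numbered deviations from -0.115 to 0.0533 in Ishikawa and -0.0547 to 0.0595 in T-47D cells. The replicate block ended 1 member call, RARB at 0 h between the lines (-0.92, adjusted p = 0.117, edgeR). That fit had a block within each line, and its difference at 0 h is the one for replicate 1. With 2 libraries per group, a left-out library leaves its group with 1, which is assumed to vary like the others. Depth limits RARB, CYP26A1, CYP26B1 and, in T-47D cells, STRA6.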
